A study of Macaca mulatta with 4 samples.

Results

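Collagens were examined in prefrontal cortex of wild type rhesus macaques (Macaca mulatta), in 2 control libraries (agent none) and 2 libraries taken after repeated exposure to sevoflurane, an inhaled general anaesthetic. The members were all genes of the deposited count table whose name is COL, a number, A and a number, which gave 39 of 33618 genes. Antisense genes were left out, as was COL4A3BP, which encodes a lipid transfer protein and no collagen. Sevoflurane was given at roughly 2.5 to 3% for 4 hours per session, first at about postnatal day 7 and again 14 and 28 days later, and cortex was collected right after the third session. No source used here gives the age and handling of the control animals, the sex of any animal or the event from which the intervals run. Whether replicates 2 and 3 of each group are separate animals is not labelled either. The p-values then measure only the spread between these libraries, which may be technical. The comparison asks which collagen genes differed in cortex after sevoflurane.

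Collagens are secreted or membrane-bound proteins in which glycine-rich chains wind into a triple helix. Fibrillar collagens form the cables of connective tissue, while type IV collagen forms the sheet-like network of basement membranes. Fibril-associated collagens sit on fibrils, and type VI collagen forms beaded filaments around cells. Brain tissue holds little fibrillar collagen outside its membranes and vessels. Basement membranes surround every cerebral vessel and line the surface under the meninges, the membranes that cover the brain. Several collagens without a structural role in fibrils are made by neurons and glia.

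Of the 39 collagens, 33 passed the filter on low counts and were tested, and 2 were called (edgeR quasi-likelihood test; adjusted p under 0.05, by Benjamini-Hochberg over the whole table). COL9A2, a chain of the fibril-associated type IX collagen, and COL4A5, a chain of type IV collagen, both fell after sevoflurane, by more than 1 on the log2 scale. With all 4 libraries and group as the only term, no collagen was called higher by edgeR or DESeq2. Without sevoflurane replicate 3 the log2 fold changes of COL1A1, COL1A2, COL6A2 and COL6A3 were 1.36, 1.60, 1.87 and 1.34. Without sevoflurane replicate 2 they were -0.05, -0.06, 0.13 and -0.03. A fit with 1 library in a group takes its spread from the other group alone. The 2 calls were 6.06% of the tested collagens, against 0.599% of all 17693 genes tested (11 higher and 95 lower). At an unadjusted p under 0.05 there were 8 collagens (24.2%) against 9.92% of all genes. These were COL9A2, COL4A5, COL9A1, COL20A1 and COL5A2 with negative log2 fold changes, and COL6A2, COL13A1 and COL4A6 with positive ones. The median log2 fold change of the tested collagens was 0.05, beside -0.00 over all genes, with 17 positive and 16 negative values. It was -0.06 without sevoflurane replicate 2 and -0.05 under a stricter filter. Changes of at least 2-fold were estimated for 4 collagens upward (12.1%, against 3.00% of all genes) and 3 downward (9.09%, against 2.75%).

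**Figure D1:**
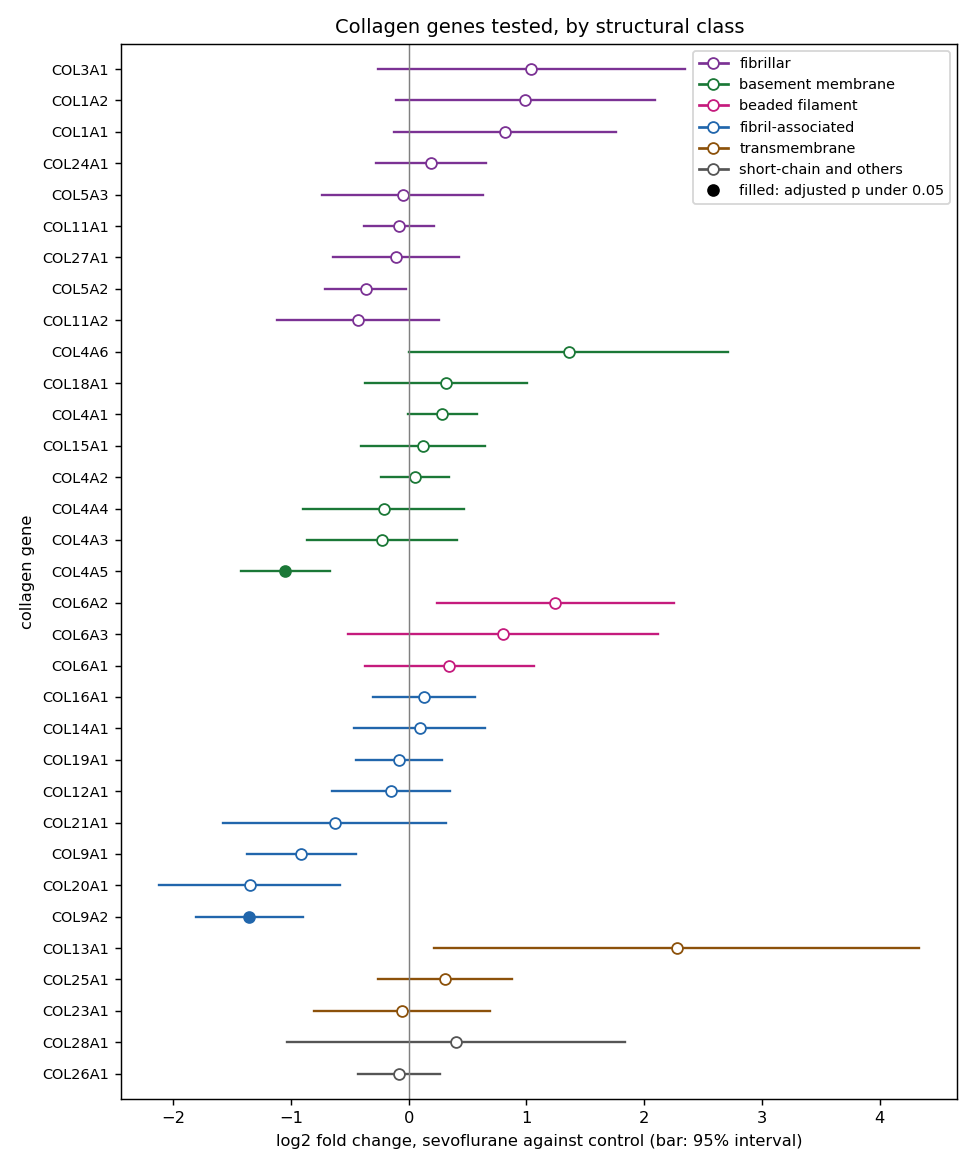
Log2 fold change of the 33 tested collagens, sevoflurane against control, with 95% intervals as bars, coloured by structural class. Filled points mark the 2 called genes, COL9A2 and COL4A5, which both lie left of 0, and the widest interval belongs to COL13A1.

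Total counts were 7793757 to 10059944 in the control libraries and 11703857 to 11706115 in the sevoflurane libraries. Collagens took 0.148% (replicate 2) and 0.136% (replicate 3) of the control counts, and 0.155% (replicate 2) and 0.125% (replicate 3) of the sevoflurane counts. All 10 neuron markers and all 10 astrocyte markers checked against the tissue label passed the filter. The neuron list had 0 calls, with all 10 log2 fold changes positive (median 0.14). The astrocyte list had 1 call (GFAP, lower), with 7 negative and 3 positive values. A list of 8 microglia markers had 1 call (CX3CR1, lower), with 6 negative and 2 positive values. Levels are given as CPM, counts per 1000000 of the TMM-normalised library size. They are not divided by transcript length, so a level is compared between libraries and not between genes. In whole tissue, fewer cells of a type and less RNA per cell cannot be told apart.

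Among the fibril-associated collagens, COL9A2 had 88.4 CPM in control replicate 2 and 124 CPM in control replicate 3. After sevoflurane it had 36.1 CPM in replicate 2 and 46.8 CPM in replicate 3. Both sevoflurane libraries thus lay below both controls, and the gap between the groups was wider than the distance within either. The control mean was 106 ± 24.9 CPM and the sevoflurane mean 41.4 ± 7.56 CPM (SD, n = 2 each). On the log2 scale COL9A2 fell by 1.35 (SE 0.20, edgeR adjusted p = 0.0229), with a 95% interval from -1.81 to -0.90. With any 1 library left out the COL9A2 estimate was -1.58 to -1.10.

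COL9A1, the partner chain of COL9A2 in type IX collagen, had 47.5 and 68.4 CPM in control replicates 2 and 3, and 33.1 and 28.4 CPM in sevoflurane replicates 2 and 3. The groups did not overlap. The log2 fold change of COL9A1 was -0.91 (SE 0.20, edgeR adjusted p = 0.117), which was not called, whereas DESeq2 gave adjusted p = 0.0106. Without control replicate 2 it was -1.15, and without sevoflurane replicate 2 it was -1.03. It was -0.63 without control replicate 3 and -0.81 without sevoflurane replicate 3. The COL9A1 share of the counts of these 2 chains was 35.0% (95% exact binomial interval 32.5 to 37.5) and 35.6% (33.2 to 38.2) in control replicates 2 and 3. It was 47.8% (44.4 to 51.3) in sevoflurane replicate 2 and 37.8% (34.6 to 41.1) in sevoflurane replicate 3. The share in sevoflurane replicate 2 lay above the other 3 libraries beyond counting error, which is all that such intervals cover.

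COL20A1, a further member of the class, had 53.6 and 41.8 CPM in control replicates 2 and 3. It had 11.0 CPM in sevoflurane replicate 2 and 26.5 CPM in sevoflurane replicate 3. Both sevoflurane libraries were below both controls, but they differed from each other by more than a log2 unit. Its log2 fold change was -1.35 (SE 0.34, edgeR adjusted p = 0.171), which was not called, and DESeq2 gave adjusted p = 0.00486. The estimate was -2.11 without sevoflurane replicate 3 (adjusted p = 7.73e-08) and -0.85 without sevoflurane replicate 2 (adjusted p = 0.233), so the size rested on which sevoflurane library was kept.

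The other fibril-associated members showed no called difference. COL12A1, which decorates type I fibrils, had 104 and 60.9 CPM in control replicates 2 and 3 and 73.9 and 75.4 CPM in sevoflurane replicates 2 and 3. The controls spanned both sevoflurane values, and the log2 fold change of -0.15 (SE 0.22) became 0.29 without control replicate 2. COL19A1, a collagen made by neurons and linked to synapse formation, had 54.1, 50.4, 44.9 and 53.7 CPM in control replicates 2 and 3 and sevoflurane replicates 2 and 3. These ranges overlapped (-0.08, SE 0.16), and without sevoflurane replicate 2 the value was 0.04. COL21A1 had -0.63 (SE 0.42) on 31 to 43 counts per library, and COL14A1 and COL16A1 had 0.09 and 0.13. Over the 8 members of the class under the naming rule, 6 were negative and 2 positive, with a median of -0.39. COL9A3 and COL22A1, listed only by gene number and not among these 8, had -0.05 and -0.04.

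Markers of the oligodendrocyte lineage, which makes myelin, differed between the same libraries. The summed level of 14 mature oligodendrocyte markers was 9417 and 14856 CPM in control replicates 2 and 3, and 2456 and 3664 CPM in sevoflurane replicates 2 and 3. Of the 13 tested, 12 were called lower and 0 higher. TF was not tested and was at 0 in all libraries but control replicate 2. The summed level of 10 oligodendrocyte precursor markers was 1058.5 and 997 CPM in the controls and 718 and 799 CPM after sevoflurane, with 10 of 10 negative and 0 called. Sevoflurane replicate 2 was thus the lowest library for both lists, as it was for COL9A2, COL20A1 and COL4A5. COL9A1 was lowest in sevoflurane replicate 3. In summed levels this order was not particular to the lineage. Astrocyte markers summed to 9895 and 8289 CPM in control replicates 2 and 3, and 6064 and 6146 CPM in sevoflurane replicates 2 and 3. GFAP alone had 5249 and 3877 CPM in the controls, and 1531 and 1898 CPM after sevoflurane. Of the 10 astrocyte markers 7 were negative and 3 positive. Microglia markers summed to 354 and 316 CPM in the controls, and 234 and 285 CPM after sevoflurane. Of the 8 microglia markers 6 were negative and 2 positive, C1QA (0.66) and C1QB (0.67). Sums of the neuron, fibroblast, endothelial, and pericyte and smooth muscle markers were lowest in other libraries. The part of any of these cells in the collagen values was not tested.

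**Figure D2:**
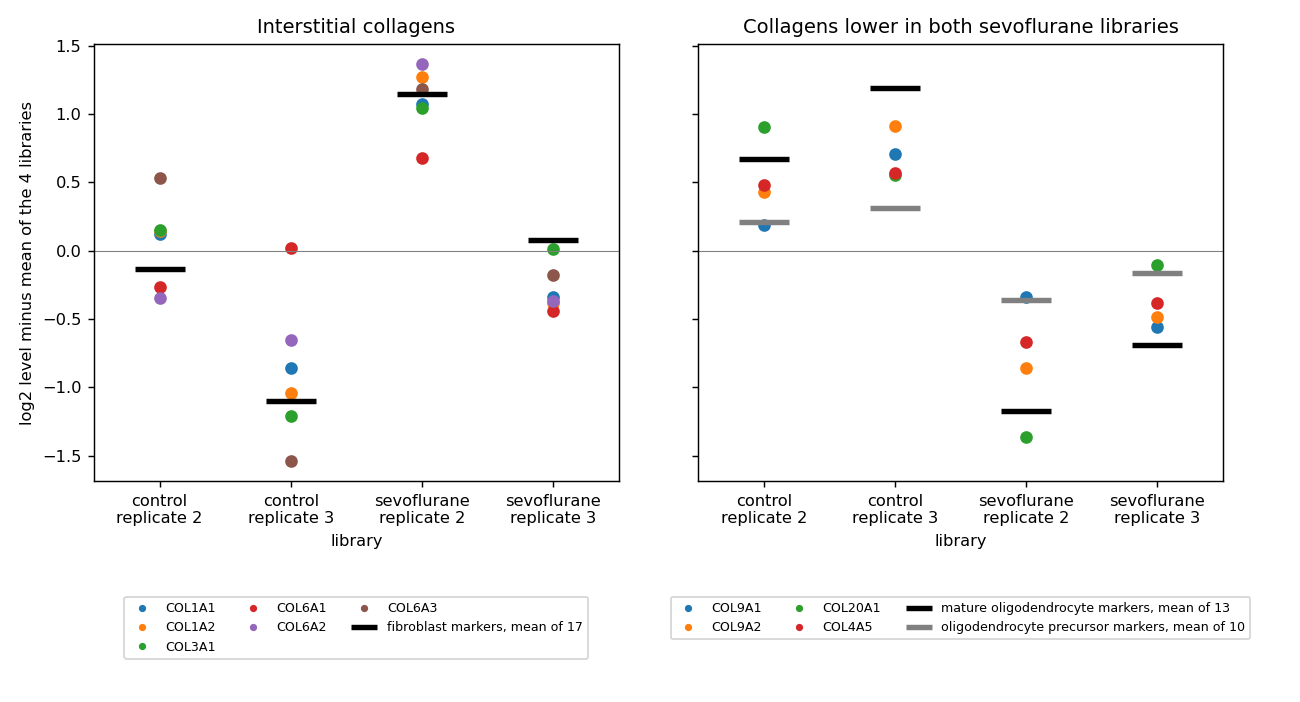
Log2 level of single collagens in each library minus the mean of the 4 libraries (points), beside the mean of cell type markers (bars; 17 fibroblast, 13 mature oligodendrocyte and 10 oligodendrocyte precursor genes). COL1A1, COL1A2, COL3A1 and the type VI chains were highest in sevoflurane replicate 2, and COL9A1, COL9A2, COL20A1 and COL4A5 were below the mean in both sevoflurane libraries. The genes shown were picked after their values were seen, and the other marker lists are not shown.

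Type IV chains assemble into networks in fixed combinations, and their genes lie in head-to-head pairs, COL4A1 with COL4A2, COL4A3 with COL4A4 and COL4A5 with COL4A6. COL4A5 was the called member. It had 61.5 and 65.1 CPM in control replicates 2 and 3, and 27.6 and 33.6 CPM in sevoflurane replicates 2 and 3. The controls were close together and far above either sevoflurane value. The control mean was 63.3 ± 2.57 CPM and the sevoflurane mean 30.6 ± 4.25 CPM (SD, n = 2 each). On the log2 scale COL4A5 fell by 1.05 (SE 0.17, edgeR adjusted p = 0.0322), with a 95% interval from -1.43 to -0.67. The call was not kept with no filter (adjusted p = 0.0639), without control replicate 3 (0.0501) or without sevoflurane replicate 2 (0.0999), while the log2 fold change stayed between -1.20 and -0.91 with any 1 library left out.

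COL4A6, the neighbour of COL4A5, was counted far less. It had 23 and 5 counts in control replicates 2 and 3 and 53 and 38 counts in sevoflurane replicates 2 and 3, or 2.24, 0.663, 4.53 and 3.22 CPM. Both sevoflurane libraries were above both controls, and the log2 fold change was 1.36 (SE 0.60, 95% interval 0.01 to 2.71, edgeR adjusted p = 0.497), which was not called. Leaving out control replicate 2 gave 2.52 for COL4A6, and leaving out control replicate 3 gave 0.78. The COL4A5 share of this pair's counts was 96.5% (95% exact binomial interval 94.8 to 97.7) and 99.0% (97.7 to 99.7) in control replicates 2 and 3. After sevoflurane it was 85.9% (82.0 to 89.3) in replicate 2 and 91.2% (88.2 to 93.7) in replicate 3, both below the controls.

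COL4A1 and COL4A2 encode the chains of the type IV collagen found in all vessel walls. COL4A1 had 89.3 and 90.8 CPM in control replicates 2 and 3, and 111 and 109 CPM in sevoflurane replicates 2 and 3. COL4A2 had 103 and 108 CPM in the controls, and 109.7 and 109.3 CPM after sevoflurane. In both genes the sevoflurane libraries lay above the controls. For COL4A1 the libraries of a group lay close together. For COL4A2 control replicate 3 lay nearer to the sevoflurane libraries than to control replicate 2. Log2 fold changes were 0.29 (SE 0.13, edgeR adjusted p = 0.517) for COL4A1 and 0.05 (SE 0.13, adjusted p = 0.940) for COL4A2, so neither was called. The 95% intervals were -0.00 to 0.58 and -0.24 to 0.34, so a change of 2-fold lay outside both. The COL4A1 share of the pair's counts was 46.5% (44.2 to 48.7) in control replicate 2 and 45.6% (43.1 to 48.2) in control replicate 3. After sevoflurane it was 50.3% (48.4 to 52.3) in replicate 2 and 49.8% (47.9 to 51.8) in replicate 3. The groups did not overlap, but all intervals except those of control replicate 3 and sevoflurane replicate 2 met across the groups.

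Among other basement membrane collagens, COL18A1, the source of the fragment endostatin, had 16.0 and 16.2 CPM in control replicates 2 and 3. It had 26.6 CPM in sevoflurane replicate 2 and 13.5 CPM in sevoflurane replicate 3, on either side of the controls (0.32, SE 0.30, and -0.25 without sevoflurane replicate 2). COL15A1, a related collagen at the outer side of basement membranes, had 0.12, and COL4A3 and COL4A4 had -0.23 and -0.21 on 66 to 89 counts per library. The class median was 0.09 over 8 members, 5 of them positive, and -0.07 without sevoflurane replicate 2. Of 18 endothelial markers 0 were called, and their summed level was 443 and 447 CPM in control replicates 2 and 3 and 450.1 and 437 CPM in sevoflurane replicates 2 and 3. The 14 markers of pericytes and smooth muscle, the contractile cells of vessel walls, summed to 539 and 545 CPM in the controls and 529.9 and 482 CPM after sevoflurane, with 0 of 13 tested called.

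**Figure D3:**
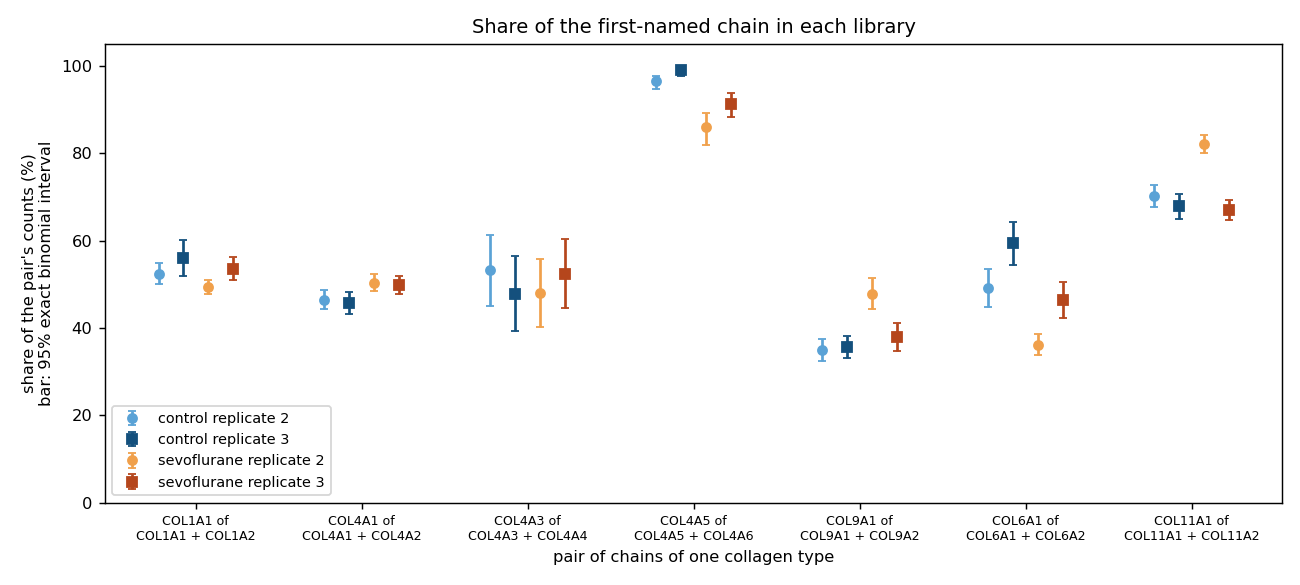
Share of the first-named chain in the counts of 7 pairs of chains of 1 collagen type, for each library, with 95% exact binomial intervals that cover counting error alone. The COL4A5, COL4A1, COL9A1 and COL6A1 shares do not overlap between control and sevoflurane libraries. Some intervals of the COL4A1, COL9A1 and COL6A1 shares meet across the groups. The COL1A1, COL9A1, COL6A1 and COL11A1 shares of sevoflurane replicate 2 are the highest or lowest of their pair.

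Among the 9 tested fibrillar collagens 0 were called with all libraries, and 4 differed by more than 1 log2 unit between the sevoflurane libraries. Between the controls COL1A2, COL3A1 and COL5A3 differed by more than 1 log2 unit. COL1A1, which with COL1A2 forms type I collagen, the main collagen of connective tissue, had 83.5 CPM in control replicate 2 and 42.2 CPM in control replicate 3. It had 162 CPM in sevoflurane replicate 2 and 60.7 CPM in sevoflurane replicate 3. The groups overlapped, since sevoflurane replicate 3 lay between the controls. COL1A1 had a log2 fold change of 0.82 (SE 0.42, edgeR adjusted p = 0.588), with -0.05 without sevoflurane replicate 2 and 1.36 without sevoflurane replicate 3. COL1A2 had 75.8, 33.2, 166 and 52.6 CPM in control replicates 2 and 3 and sevoflurane replicates 2 and 3, in the same order of libraries. Its log2 fold change was 0.99 (SE 0.49, edgeR adjusted p = 0.569), and -0.06 without sevoflurane replicate 2. COL3A1, the type III chain and a ligand of the receptor ADGRG1 in developing cortex, had 36, 9, 79 and 38 counts in those libraries (1.04, SE 0.58, edgeR adjusted p = 0.628). The COL3A1 estimate was 2.05 without control replicate 2, 0.50 without control replicate 3 and 0.43 without sevoflurane replicate 2, and it was called in none of these. For COL1A1, COL1A2 and COL3A1 alike, sevoflurane replicate 2 was the highest library and control replicate 3 the lowest.

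COL5A2, a chain of type V collagen, which starts fibril assembly, had 208 and 162 CPM in control replicates 2 and 3, and 155 and 133 CPM in sevoflurane replicates 2 and 3. The groups did not overlap, but sevoflurane replicate 2 came close to control replicate 3. COL5A2 had a log2 fold change of -0.37 (SE 0.15, edgeR adjusted p = 0.478), and -0.18 without control replicate 2. COL11A1, a fibril-nucleating chain of type XI collagen, had 95.05, 97.3, 92.6 and 88.9 CPM in control replicates 2 and 3 and sevoflurane replicates 2 and 3. All 4 libraries were within a narrow range (-0.08, SE 0.13, 95% interval -0.38 to 0.21). COL11A2, its partner chain, had 40.2, 46.1, 20.2 and 43.7 CPM in the same libraries, with sevoflurane replicate 2 below the other 3. Its log2 fold change of -0.43 (SE 0.30) was -1.10 without sevoflurane replicate 3 (edgeR adjusted p = 0.0301) and 0.02 without sevoflurane replicate 2. The COL11A1 share of that pair was 82.1% (80.0 to 84.2) in sevoflurane replicate 2 and 67.1 to 70.3% in the other libraries.

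COL5A3, a further type V chain, had 45.3 and 100.2 CPM in control replicates 2 and 3, and 63.0 and 77.0 CPM in sevoflurane replicates 2 and 3 (-0.05, SE 0.30). The controls were the lowest and the highest of the 4. COL24A1 had 0.19 and COL27A1 -0.11, both with overlapping groups. The median of the 9 tested fibrillar members was -0.05, with 4 positive, and 0.41 without control replicate 3. With all 4 libraries and group as the only term no fibrillar member was called by edgeR or DESeq2, and 1, COL5A2, had an unadjusted p under 0.05 in edgeR. Without sevoflurane replicate 3 the log2 fold changes were 1.36 for COL1A1, 1.60 for COL1A2 and -1.10 for COL11A2.

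Type VI collagen is built from COL6A1, COL6A2 and a longer chain such as COL6A3. COL6A2 had 26.8 and 21.5 CPM in control replicates 2 and 3. It had 88.5 CPM in sevoflurane replicate 2 and 26.5 CPM in sevoflurane replicate 3, so 1 library stood far above the other 3. The log2 fold change of COL6A2 was 1.25 (SE 0.45, edgeR adjusted p = 0.369), 0.13 without sevoflurane replicate 2 and 1.87 without sevoflurane replicate 3. COL6A1 had 26.0, 31.6, 50.1 and 22.9 CPM in control replicates 2 and 3 and sevoflurane replicates 2 and 3 (0.35, SE 0.32), and -0.33 without sevoflurane replicate 2. COL6A3 had 19.3, 4.38, 30.5 and 11.8 CPM (0.80, SE 0.58), and -0.03 without sevoflurane replicate 2. All 3 chains were highest in sevoflurane replicate 2. The COL6A1 share of COL6A1 and COL6A2 counts was 49.2% (44.9 to 53.5) in control replicate 2 and 59.5% (54.5 to 64.3) in control replicate 3. It was 36.1% (33.8 to 38.5) in sevoflurane replicate 2 and 46.4% (42.3 to 50.5) in sevoflurane replicate 3. Sevoflurane replicate 2 lay below and control replicate 3 above the remaining libraries beyond counting error.

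Fibroblasts are the cells of meninges and vessel sheaths that make types I, III and VI collagen. The sum of their markers was likewise highest in sevoflurane replicate 2 and lowest in control replicate 3. Over 18 genes it was 292 and 214 CPM in control replicates 2 and 3, and 540.0 and 294 CPM in sevoflurane replicates 2 and 3. Single markers varied, as TWIST1 and ALDH1A1 were highest in control replicate 2. TWIST1 and SLC47A1 were lowest in sevoflurane replicate 3, and SLC6A13, MGP and FOXC2 in control replicate 2. Relative to the mean of the 4 libraries the 17 tested markers averaged -0.14, -1.10, 1.15 and 0.08 on the log2 scale. The 6 genes COL1A1, COL1A2, COL3A1, COL6A1, COL6A2 and COL6A3 were highest in sevoflurane replicate 2, and all but COL6A1 were lowest in control replicate 3. Of the 17 tested markers 1, the transporter SLC6A13, was called higher (1.43, edgeR adjusted p = 0.0465), and 15 had positive log2 fold changes. SLC22A8 was at 0 in control replicate 3. The part of fibroblasts in the collagen values was not tested.

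**Figure D4:**
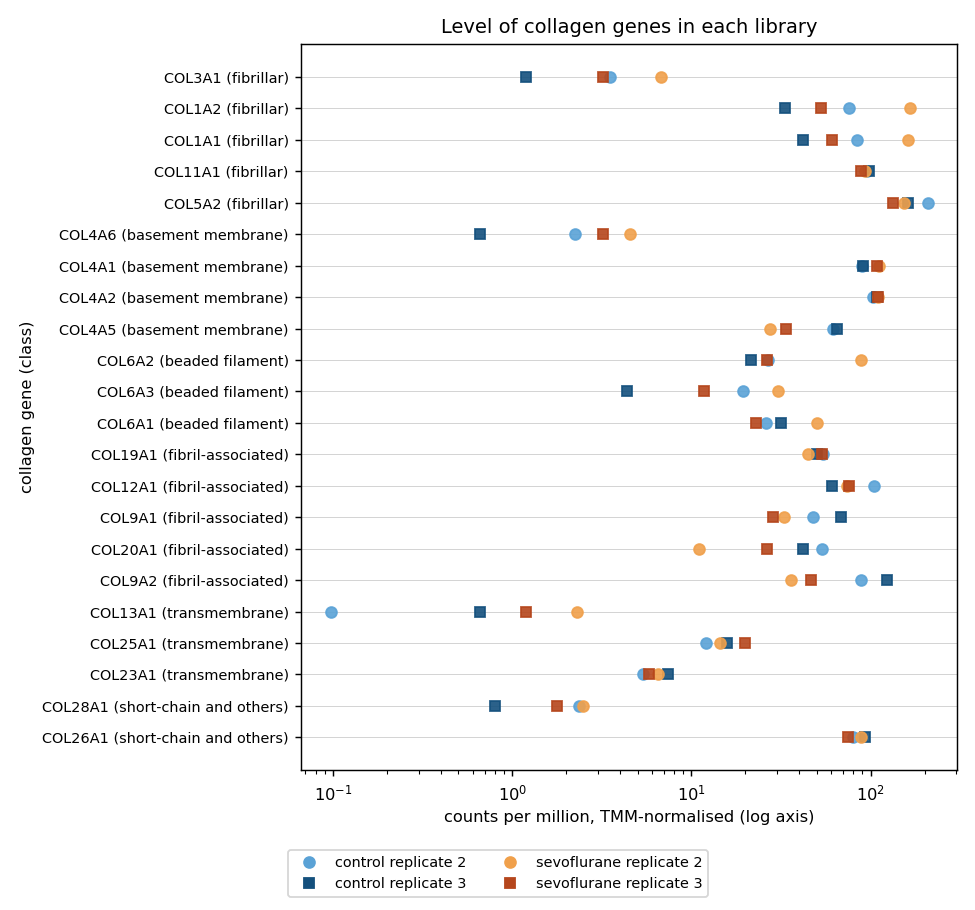
Level of 22 collagens in each library, as TMM-normalised CPM on a log axis, grouped by structural class. COL4A5, COL9A1, COL9A2 and COL20A1 show both sevoflurane libraries to the left of both controls, whereas sevoflurane replicate 2 alone lies to the right for COL1A1, COL1A2 and the type VI chains.

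The transmembrane collagens are held in the cell surface and can be shed from it. COL25A1, a neuronal collagen first known from amyloid plaques, had 12.1, 15.8, 14.5 and 19.9 CPM in control replicates 2 and 3 and sevoflurane replicates 2 and 3 (0.31, SE 0.25). COL23A1 had 5.37, 7.43, 6.49 and 5.77 CPM in these libraries (-0.05, SE 0.33), and the groups overlapped in both genes. COL13A1, known from the neuromuscular junction, had 1 and 5 counts in control replicates 2 and 3, and 27 and 14 counts in sevoflurane replicates 2 and 3. Both sevoflurane libraries were higher, at a depth of few reads. The log2 fold change of COL13A1 was 2.28 (SE 0.92, 95% interval 0.21 to 4.34, edgeR adjusted p = 0.438), and 1.38 to 4.01 with 1 library left out. Among the remaining classes, COL26A1 had 80.0, 93.2, 88.8 and 74.6 CPM (-0.08, SE 0.15) and COL28A1 had 24, 6, 29 and 21 counts (0.40, SE 0.64), both with overlapping groups.

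The 6 collagens below the filter were COL2A1, COL6A5, COL6A6, COL8A1, COL8A2 and COL10A1, with at most 11 counts in any library. COL2A1, the fibrillar collagen of cartilage, had 4, 0, 9 and 4 counts in control replicates 2 and 3 and sevoflurane replicates 2 and 3, and COL10A1, of growth plate cartilage, had 1, 0, 3 and 4. COL6A5 had 1, 5, 10 and 11 counts, and COL6A6 had 9, 8, 3 and 6. COL8A1 and COL8A2, of the short-chain type VIII collagen, had 1 to 7 and 1 to 8 counts. The main fit did not test these 6 genes, so they are given as counts alone. With no filter they were tested and none was called.

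Summed by class, the 10 fibrillar collagens had 590.0 and 533 CPM in control replicates 2 and 3, and 711 and 507 CPM in sevoflurane replicates 2 and 3. The sevoflurane libraries were thus the highest and the lowest of the 4. The 8 basement membrane collagens lay close together in the 4 libraries, with 299.8 and 310.3 CPM in the controls and 307 and 295 CPM after sevoflurane. That flat sum held the fall of COL4A5 beside the values of COL4A1 and COL4A2. The 8 fibril-associated collagens had 388 and 385 CPM in the controls, and 242 and 271 CPM after sevoflurane, a log2 ratio of the means of -0.59 with no overlap of the groups. Without COL12A1, the member with the most counts, that ratio was -0.74. The 5 type VI collagens had 73.1, 59.1, 170 and 62.6 CPM in control replicates 2 and 3 and sevoflurane replicates 2 and 3, a log2 ratio of 0.82 that was -0.08 without sevoflurane replicate 2. For the fibrillar sum the ratio was 0.12, and -0.15 without that library. The class sums are given as descriptions, with no test. For a single value an exact permutation test (two-sided) of 2 libraries against 2 has 0.333 as its smallest p.

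**Figure D5:**
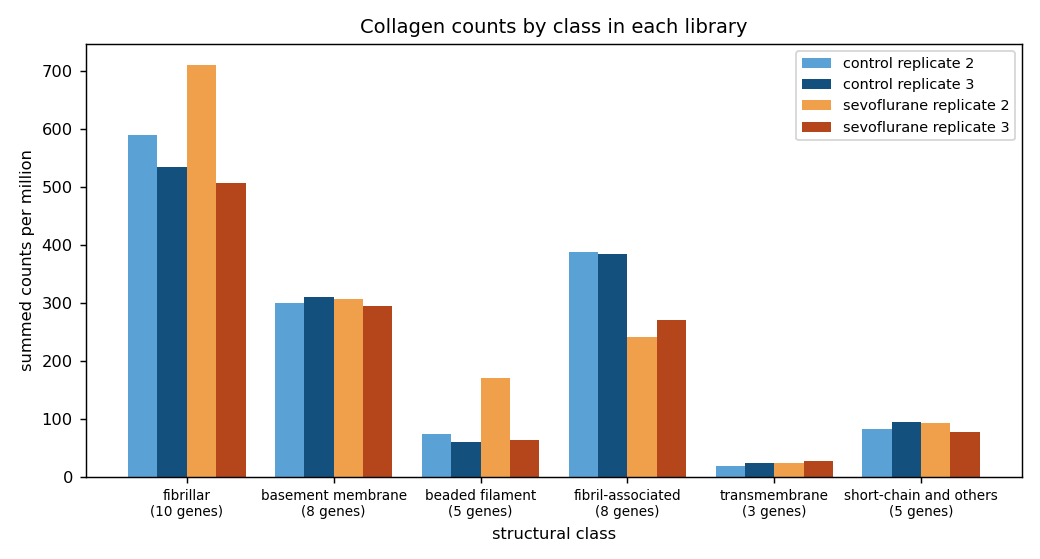
Summed CPM of the collagens of each structural class, 1 bar per library, with the number of genes under each class. Fibril-associated collagens are lower in both sevoflurane libraries (242 and 271 against 388 and 385), and the beaded filament class is high in sevoflurane replicate 2 alone (170).

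Across libraries, sevoflurane replicate 2 was the highest of the 4 for 14 of the 33 tested collagens (42.4%), against 22.2% of all tested genes. Sevoflurane replicate 3 was the highest for 3 (9.09%, against 22.2%). The sevoflurane libraries differed from each other by more than 1 log2 unit in 8 collagens (24.2%, against 5.35% of all genes). These were COL6A1, COL6A2, COL6A3, COL1A1, COL1A2, COL3A1, COL11A2 and COL20A1. The control libraries differed by more than 1 log2 unit in COL1A2, COL3A1, COL4A6, COL5A3, COL6A3, COL13A1 and COL28A1. The share of all genes that did so between the controls was not counted. Both sevoflurane libraries were above both controls in 4 collagens (12.1%), COL4A1, COL4A2, COL4A6 and COL13A1, a share below the 20.8% of all genes tested. They were below both controls in 8 collagens (24.2%), near the 20.4% of all genes. The 8 were COL4A3, COL4A5, COL5A2, COL9A1, COL9A2, COL11A1, COL20A1 and COL21A1.

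Genes that build, bind and break down collagen were read from the same fit. Of 95 listed genes 87 were tested and 0 were called by edgeR, with a median log2 fold change of 0.04. At an unadjusted p under 0.05 there were 19 (21.8%, against 9.92% of all genes), and DESeq2 called 2, both lower, TNC and DDR1.

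Of 20 tested genes for folding and modifying chains in the endoplasmic reticulum, 9 were positive and 11 negative (median -0.02). P4HA3, a prolyl hydroxylase subunit that stabilises the helix, had 11.9 and 9.95 CPM in control replicates 2 and 3 and 18.8 and 26.9 CPM in sevoflurane replicates 2 and 3. It had a log2 fold change of 1.06 (SE 0.25, edgeR adjusted p = 0.135), and 1.29 without sevoflurane replicate 2. PLOD3, a lysyl hydroxylase, had -0.74 (SE 0.22, adjusted p = 0.270). The groups did not overlap for either gene, and neither was called. Of 13 genes for cleaving and cross-linking procollagen, 10 were positive (median 0.22). The smallest p values there belonged to ADAMTS2, which removes the amino-terminal propeptide (0.84, SE 0.34, edgeR adjusted p = 0.462), and PCOLCE, an enhancer of carboxy-terminal cleavage (0.97, SE 0.52, adjusted p = 0.614).

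The collagen receptors DDR1 and DDR2, tyrosine kinases switched on by collagen, had opposite signs. DDR1 had 212 and 293 CPM in control replicates 2 and 3, and 163 and 156 CPM in sevoflurane replicates 2 and 3 (-0.66, SE 0.16, edgeR adjusted p = 0.149). DDR2 had 13.2 and 9.55 CPM in the controls, and 26.1 and 18.9 CPM after sevoflurane (0.98, SE 0.26, adjusted p = 0.193). Groups did not overlap for either, and neither was called. Without control replicate 2 DDR1 was -0.88, and without sevoflurane replicate 3 DDR2 was 1.19. Of the 10 receptors tested 5 were positive and 5 negative (median -0.02).

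Among 11 tested genes of collagen breakdown (median -0.01), the membrane-bound metalloproteinases MMP15 (-0.55, SE 0.19, edgeR adjusted p = 0.356) and MMP14 (0.79, SE 0.30, adjusted p = 0.401) had the smallest p values. Of 16 tested basement membrane partners 10 were positive (median 0.11). They were led by the laminin chains LAMB1 (0.55, SE 0.16, adjusted p = 0.249) and LAMA5 (-0.52, SE 0.15, adjusted p = 0.253), again with opposite signs. Of 17 proteoglycans and other partners of fibrils 10 were positive (median 0.33). TNC, tenascin C of the brain matrix, had 358 and 329.5 CPM in control replicates 2 and 3, and 226 and 227 CPM in sevoflurane replicates 2 and 3 (-0.60, SE 0.12, edgeR adjusted p = 0.0658), and was called with control replicate 2 (adjusted p = 0.0338) or control replicate 3 (0.0259) left out. SPON2 had -1.23 (SE 0.30, adjusted p = 0.149). DCN and LUM, which this list shares with the fibroblast markers, had 0.67 and 0.95 and were not called.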

How the data were processed

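RNA was measured by sequencing in 4 libraries of rhesus macaque prefrontal cortex. Per the labels' protocols, RNA was extracted with Trizol and libraries followed standard Illumina protocols. The authors deposited 1 table of raw counts per gene, and aligned reads with HISAT2, per the submitters' processing notes. No source used here gives the genome build, annotation, counting program, strand setting or treatment of multiply matching reads, so overlapping and antisense genes are uncertain. No sequence or coordinate was used.

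The analysis used edgeR 4.0.16 in R 4.3.3. The filter asked for 10 counts, at median library depth, in 2 libraries and 15 counts in total, and TMM factors scaled the libraries. The quasi-likelihood F test (two-sided) compared the groups with no other term. A call is an adjusted p under 0.05, by Benjamini-Hochberg over the 17693 genes that passed. The SE is the log2 coefficient divided by the root of F. Deviations used a prior count of 2. Steps were tested on simulated data. Alternatives were DESeq2 1.42.0 (size factors, or its test), limma 3.58.1 (voom), scaling by library size, leaving the filter out or making it stricter (mean of 5 CPM, with 1 CPM in 2 libraries), the likelihood ratio test, a threshold of 0.1, the replicate number as a block and leaving out each library.

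The collagens, gene lists and tests were chosen with earlier results of these data known. Values in every library are given for called collagens, the 3 members of each class with the most counts and the 3 largest changes each way at a mean of at least 1 CPM. In the other lists called genes and the 2 with the smallest p are named. Other members given per library, COL1A2, COL3A1 and COL9A1 among them, were added after their values were seen. Of the pathway genes 92 were matched by symbol, 2 by RefSeq gene number and 1 by an older symbol, with gene names from RefSeq T2T-MMU8v2.0.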

Additional observations from a re-analysis of the deposited data

How the results depend on the processing

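The number of libraries and the spread between them limit these results: with 2 per group, changes near 2-fold can be missed, and genes under about 50 counts per library have wide intervals. The whole table gave 106 calls, against 203 at a threshold of 0.1, 60 with no filter, 275 by DESeq2 (57 higher and 218 lower), 441 by the likelihood ratio test and 145 to 283 with 1 library left out. The 2 collagen calls became 1 with no filter, 4 by DESeq2 and by the likelihood ratio test (COL9A1 and COL20A1 added, all lower), and 1 to 8 with 1 library left out. The 1 was without control replicate 3 and the 8 without sevoflurane replicate 3. COL9A2 was called under every alternative run. The 0 calls among pathway genes became 1 at a threshold of 0.1, 2 by DESeq2, 5 by the likelihood ratio test and 1 to 4 with 1 library left out. The collagen median was -0.045 under the stricter filter, which tested 28 collagens, and -0.056 to 0.068 with 1 library left out. Class sums moved to -0.058 (basement membrane), -0.74 (fibril-associated) and 0.30 (short-chain and others) without the member with the most counts. With 1 library left out they ran from -0.078 to 1.36 (beaded filament), -0.15 to 0.34 (fibrillar) and -0.68 to -0.51 (fibril-associated). Other class sums stayed within the spread between replicates. The log2 fold change passed through 0 with 1 library left out for COL12A1 (-0.48 to 0.29), COL19A1 (-0.22 to 0.040), COL23A1 (-0.28 to 0.19), COL26A1 (-0.21 to 0.039), COL28A1 (-0.14 to 1.41), COL1A1 (-0.054 to 1.40), COL6A1 (-0.33 to 0.80) and COL6A3 (-0.030 to 2.27). It did so too for COL1A2, COL4A4, COL5A3, COL11A2, COL14A1, COL18A1, COL24A1 and COL27A1. A lone library of a group was then assumed to vary like the other group. The cause of these moves was not tested, beyond the smaller number of libraries or genes that each alternative uses.

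With the replicate number as a replicate block there were 511 calls over the table, 8 collagens (COL1A1, COL1A2, COL6A2 and COL6A3 higher, and COL4A5, COL9A1, COL9A2 and COL20A1 lower) and 7 pathway genes. The labels do not say that equal numbers mark a shared animal or batch, and the differences between replicates 2 and 3 of the 2 groups had a correlation of 0.01 over genes, so the numbers do not show a pairing.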

Other observations

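The table lists 3 further collagens by RefSeq gene number, outside the naming rule. COL5A1, a type V chain, had 45.1 and 43.0 CPM in control replicates 2 and 3, and 36.7 and 33.9 CPM in sevoflurane replicates 2 and 3. Both sevoflurane libraries lay below both controls, as for its partner chain COL5A2, and the log2 fold change was -0.32 (SE 0.16, edgeR adjusted p = 0.576). COL9A3, the remaining type IX chain, had 3.81 and 11.3 CPM in control replicates 2 and 3, and 3.25 and 11.1 CPM in sevoflurane replicates 2 and 3. It was thus low in both libraries numbered 2 and did not follow COL9A1 and COL9A2 (-0.05, SE 0.61). COL22A1 had 11, 7, 16 and 7 counts in control replicates 2 and 3 and sevoflurane replicates 2 and 3. COL7A1 and COL17A1 were not matched by symbol, RefSeq gene number or older symbol, so they were not analysed here.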
